A study of Mus musculus with 12 samples.

Results

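The 10 genes described here code for a pair of receptors of prostaglandin E2 (PGE2), EP1 and EP4, and for 8 early targets of cyclic AMP (cAMP). They were taken by name from the 30705 gene names of an RNA-seq table of 12 samples of murine BrafV600E melanoma cells, and all 10 names were found: *Ptger1*, *Ptger4*, *Nr4a1*, *Nr4a2*, *Nr4a3*, *Crem*, *Pde4b*, *Pde4d*, *Sik1*, and *Per1*. Every group was made from cells of one origin, a melanoma of a C57BL/6 mouse with the alleles Braf+/LSL-V600E, Tyr::CreERT2+/o, in which the tyrosinase promoter drives an inducible Cre, and p16INK4a-/-. The activated *Braf* allele and the loss of p16INK4a are thus shared by controls and knockouts alike. The 3 scramble samples are controls for the CRISPR/Cas9 editing, and 3 samples come from each of *ptgs1*-KO (COX-1), *ptgs2*-KO (COX-2), and *ptges*-KO (mPGES-1) cells, named for the gene that was targeted. The cells grew in culture without further treatment named in the labels. The methods of the study describe puromycin selection of the edited cells and, from these, subcloning by limiting dilution. Its legends call the samples subclones and its text independent samples, so p-values measure the spread between these samples, which may hold differences between clones. The cells carry few melanocyte markers, since *Sox10*, *Tyrp1*, *Dct*, and *Mlana* were listed at 0 in all 12 samples and *Mitf*, the most abundant of the 8 markers examined, had a mean of 2.3 RPKM (reads scaled to gene length and library depth).

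COX-1 and COX-2 turn arachidonic acid into prostaglandin H2, from which mPGES-1 makes PGE2. PGE2 acts on 4 receptors, of which EP2 and EP4 couple to Gs and raise cAMP, EP3 mostly lowers it through Gi, and EP1 acts mainly through calcium. Cyclic AMP releases the catalytic subunits of protein kinase A (PKA) from their regulatory subunits. PKA then phosphorylates CREB, which binds cAMP response elements in promoters of genes such as *Nr4a1*, *Crem*, *Sik1*, and *Per1*, many of which limit the signal in turn. In melanocytes cAMP is best known as the messenger of the melanocortin receptor, which drives *Mitf* and pigment. The comparison over the 4 groups therefore asks at which levels the receptors and these targets are transcribed when an enzyme on the way to PGE2 has been targeted.

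The samples had an estimated 13.3 to 16.9 M reads (median 15.5 M), if the unit is RPKM and gene lengths resemble those of GENCODE. At the median depth 1 RPKM stands for about 51 to 58 reads of *Ptger4* and for about 7.4 to 67 reads of *Pde4b*, depending on the transcript counted. *Ptgs1* had a mean of 151 ± 11.5 RPKM (SD, n = 3) in scramble samples and 16.0 ± 1.49 RPKM in *ptgs1*-KO cells, *Ptgs2* was 761 ± 14.2 RPKM in scramble and 79.8 ± 4.38 RPKM in *ptgs2*-KO cells, and *Ptges* was 77.6 ± 2.43 RPKM in scramble and 37.1 ± 3.38 RPKM in *ptges*-KO cells. Each targeted gene was thus lowest in the group labelled with its name, and *Ptges* mRNA kept 47.9% of its scramble level there. In *ptgs1*-KO cells *Ptges* was 54.5 ± 2.76 RPKM, which also passed the test against scramble (limma, Benjamini-Hochberg adjusted p = 0.0011). *Ptgs2* passed there too, with -0.36 and a limma adjusted p of 0.0386, a call that was lost in 12 of 21 alternatives of processing. One library stood apart: 2 rows of ribosomal RNA held 13.5% of the summed values in *ptgs1*-KO replicate 3 and 0.528% to 4.79% in the other 11 samples. Leaving this library out changed no call of the 8 genes tested in the 3 comparisons with *ptgs1*-KO cells, and values without it are given for some of the results below.

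Across all samples the levels per length of the 10 genes spanned a wide range. *Nr4a1* had the highest mean, 33.6 RPKM, followed by *Ptger1* with 25.6 RPKM, *Sik1* with 6.91 RPKM, *Per1* with 6.34 RPKM, *Nr4a2* with 4.61 RPKM, and *Pde4b* with 2.35 RPKM. *Ptger4* with 1.14 RPKM and *Crem* with 1.02 RPKM lay just above the mean of 1 RPKM needed for a test, and *Pde4d* with 0.742 RPKM and *Nr4a3* with 0.417 RPKM lay below it and were described only. The filter used the mean over all samples, so *Ptger4* passed it through its *ptgs2*-KO samples, the only group in which every value was above 1 RPKM, and *Crem* through its *ptges*-KO samples. Their presence among the genes tested is thus not independent of those groups, and their counts below are not read as support.

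**Figure D1:**
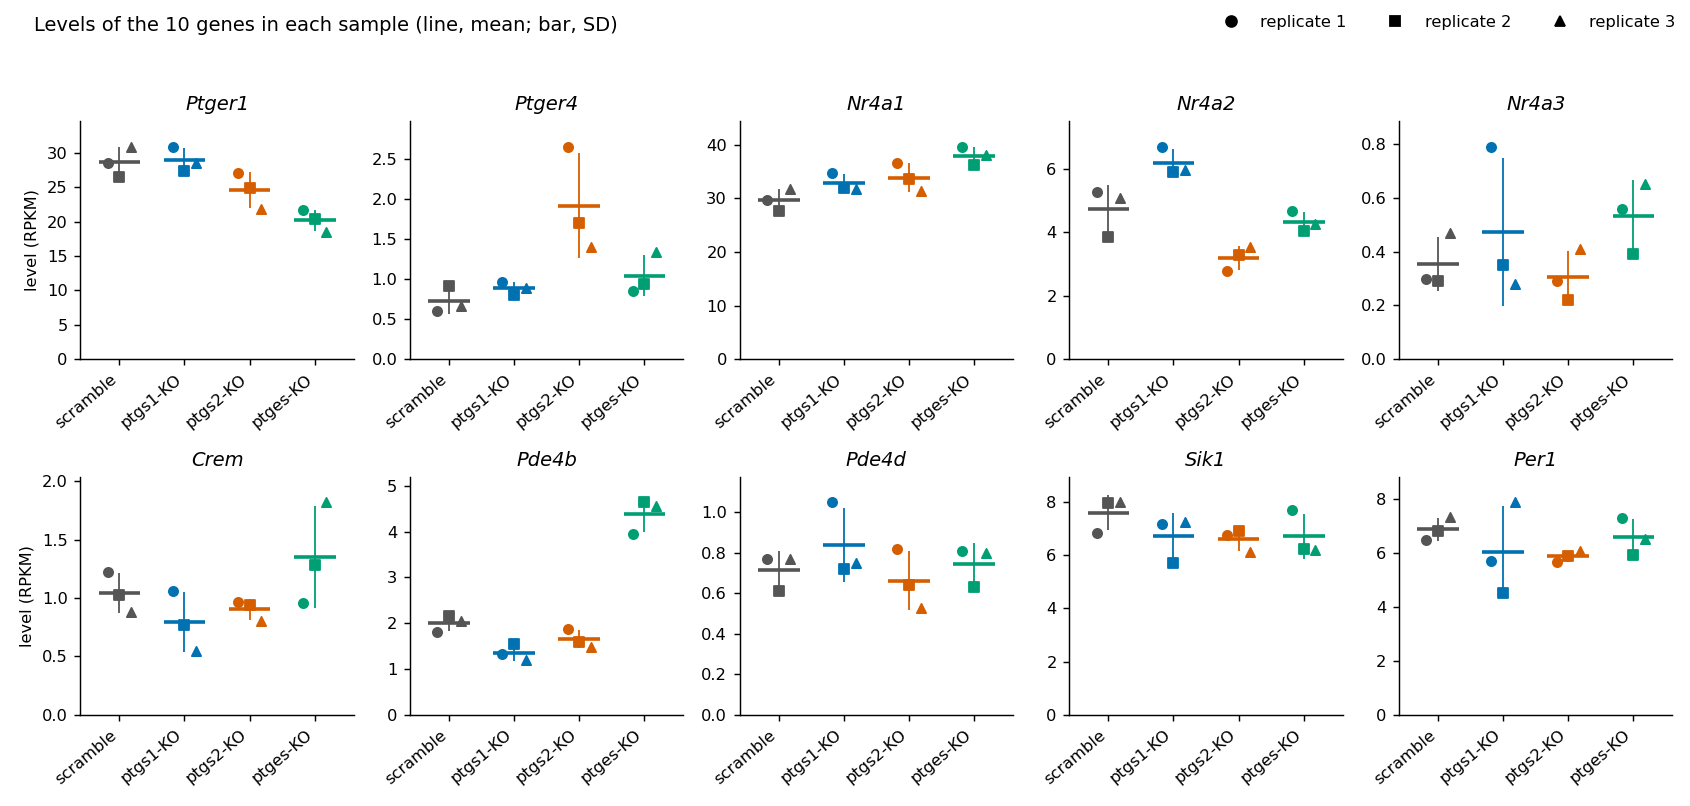
Level in RPKM (y axis, linear and from 0) of each of the 10 genes in the 3 samples of each group (x axis), with circles, squares, and triangles for replicates 1, 2, and 3, a line at the group mean, and a bar of 1 SD. *Pde4b* in *ptges*-KO cells, at 3.94 to 4.64 RPKM, lies above all other samples, whose highest value is 2.15 RPKM.

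Against scramble, none of the 8 genes tested passed in *ptgs1*-KO, 2 passed in *ptgs2*-KO, and 3 passed in *ptges*-KO cells. Passing means an adjusted p (Benjamini-Hochberg, limma, all 11282 genes that could be tested) below 0.05. The background, that is the share of all genes tested that passed, was 9.26%, 11.1%, and 26.3% in these comparisons, and nothing particular to the 8 genes as a set is read from the counts. The 5 genes were 5 different ones, so no gene passed against scramble in more than 1 knockout. In *ptgs2*-KO cells *Ptger4*, tested because of that group, rose and *Nr4a2* fell, and in *ptges*-KO cells *Pde4b* and *Nr4a1* rose and *Ptger1* fell. All 3 comparisons share the scramble samples. The median difference of the 8 genes was -0.07, -0.18, and 0.06 on the log2(RPKM + 1) scale in the *ptgs1*, *ptgs2*, and *ptges* knockouts, beside 0.01, 0.01, and -0.03 for all genes tested. In the moderated F test of limma over the 4 groups 5 of the 8 genes passed, where 38.6% of all genes tested did. At an unadjusted p under 0.05 in limma, 2 of the 8 genes, *Nr4a2* and *Pde4b*, were past the threshold in *ptgs1*-KO cells (background 23.6%), 4 were with *ptgs2* targeted (26.9%), and 3 with *ptges* targeted (38.2%). Without *ptgs1*-KO replicate 3 the count past the adjusted threshold in limma was again 0, and it was 1 (*Pde4b*) with scaling by the median ratio or without a mean-variance trend. By the median ratio 758 of all genes tested passed as higher in *ptgs1*-KO cells and 762 as lower, beside 525 and 520 as deposited.

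**Figure D2:**
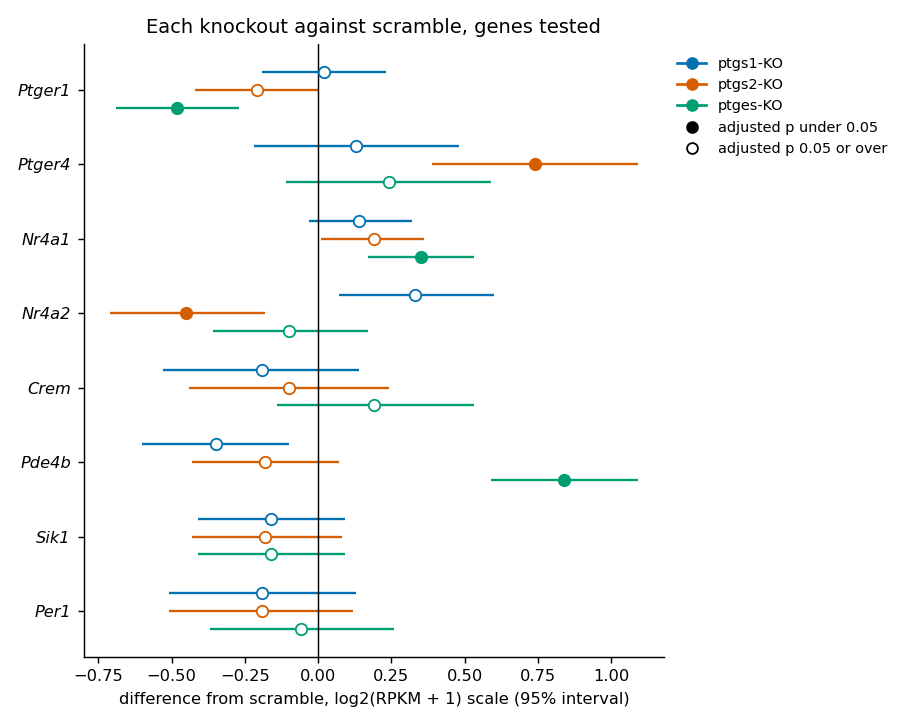
Difference of each knockout from scramble for the 8 genes tested (x axis, log2(RPKM + 1) scale), with 95% intervals from limma as bars, and filled points where the adjusted p was under 0.05. The 5 filled points are *Ptger1*, *Nr4a1*, and *Pde4b* in *ptges*-KO cells and *Ptger4* and *Nr4a2* in *ptgs2*-KO cells.

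*Ptger4* codes for EP4, a PGE2 receptor that raises cAMP, and lies on chromosome 15 of GRCm38 from 5206661 to 5244187 on the minus strand. Its level was 0.60, 0.91, and 0.66 RPKM in the scramble samples and 0.96, 0.80, and 0.89 RPKM in the *ptgs1*-KO samples. For *ptgs2*-KO cells it was 2.65, 1.70, and 1.40 RPKM, and in *ptges*-KO cells 0.85, 0.94, and 1.34 RPKM. All 3 *ptgs2*-KO samples lay above the other 9 samples, and the remaining groups overlapped. Replicate 1 of *ptgs2*-KO was the highest sample, and the lowest of that group exceeded the highest *ptges*-KO sample only slightly. The mean of *ptgs2*-KO cells was 2.65-fold that of scramble, a difference of 0.74 ± 0.16 (SE) on the log2(RPKM + 1) scale (limma, adjusted p = 0.0106), and without replicate 1 it was 0.57 (limma, adjusted p = 0.045). Without a filter on low values the adjusted p was 0.0145 in limma. Against *ptgs1*-KO cells *Ptger4* was higher by 0.61 ± 0.16 (limma, adjusted p = 0.015, or 0.035 without *ptgs1*-KO replicate 3), and the difference of 0.44 without *ptgs2*-KO replicate 1 did not pass (limma, adjusted p = 0.0645). *Ptges*-KO cells differed from *ptgs2*-KO cells by -0.50 on this scale with an adjusted p of 0.0518 in limma, which did not pass. That difference passed in 3 of 21 alternatives, with limma adjusted p from 0.0267 to 0.0446. A difference on the log2(RPKM + 1) scale understates the fold of a gene this low, and with a pseudocount of 0.1 in place of 1 the difference from scramble was 1.26 (limma, adjusted p = 0.0111). In bulk RNA a change in the share of cells that express a gene and a change in the RNA per cell cannot be told apart, here and below.

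*Ptger1*, for EP1, was the most abundant prostanoid receptor gene in the table, on chromosome 8 from 83666678 to 83672753 on the plus strand. Scramble samples had 28.56, 26.44, and 30.90 RPKM, and *ptgs1*-KO samples had 30.89, 27.45, and 28.55 RPKM. Values were 27.05, 24.88, and 21.80 RPKM in *ptgs2*-KO and 21.64, 20.43, and 18.57 RPKM in *ptges*-KO cells. The *ptges*-KO samples were the 3 lowest of the 12, with no overlap with another group, and scramble and *ptgs1*-KO samples covered nearly the same range. The mean in *ptges*-KO cells was 70.6% of that in scramble, a fall by 0.48 ± 0.10 (SE) on the log2(RPKM + 1) scale (limma, adjusted p = 0.0031). It was also lower than in *ptgs1*-KO cells (-0.50 ± 0.10, limma adjusted p = 0.00187), with or without the library rich in ribosomal RNA (-0.51 without it, limma adjusted p = 0.00533). Cells of *ptgs2*-KO differed from scramble by -0.21 (limma, adjusted p = 0.176), and *ptges*-KO cells differed from them by -0.27 (limma, adjusted p = 0.0789). In a model of these 2 groups with the replicate number as a block, chosen after seeing the data, the latter difference passed (limma, adjusted p = 0.0143). As the 2 groups do not overlap, the *ptges*-KO sample is the lower one under any numbering. The labels name an unstranded kit as well as a directional one, and whether reads were counted by strand is not given in the sources used here. The level of *Ptger1* is therefore uncertain, since without strand its reads cannot be told apart from others that map to the same bases.

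Among all 9 prostanoid receptor genes 3 were high enough to be tested. The other 2 genes for PGE2 receptors, *Ptger2* (EP2) and *Ptger3* (EP3), and the prostaglandin D2 receptor gene *Ptgdr* were listed at 0 in all samples, so *Ptger4* was the only listed gene for a Gs-coupled PGE2 receptor with values above 0. *Ptgdr2*, *Ptgir*, and *Tbxa2r*, for a second prostaglandin D2 receptor and the receptors of prostacyclin and thromboxane, did not exceed 0.19 RPKM in any sample. *Ptgfr*, for the receptor of prostaglandin F2α, had 0.57, 0.94, and 1.14 RPKM in scramble and 4.01, 4.61, and 4.23 RPKM in *ptgs1*-KO cells. It had 0.72, 0.58, and 0.66 RPKM in *ptgs2*-KO and 0.13, 0.11, and 0.16 RPKM in *ptges*-KO cells. Thus *Ptgfr* rose in *ptgs1*-KO cells, to 4.85-fold the scramble mean (1.50 ± 0.13 on the log2(RPKM + 1) scale, limma adjusted p = 5.74e-06), and fell in *ptges*-KO cells, to 15.1% of it (-0.72 ± 0.13, limma adjusted p = 0.00162). Only *ptgs2*-KO samples overlapped those of scramble. *Ptgfr* reached a mean of 1 RPKM through its *ptgs1*-KO samples, and without a filter on low values its limma adjusted p was 1.05e-05 in *ptgs1*-KO and 0.00117 in *ptges*-KO cells.

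**Figure D3:**
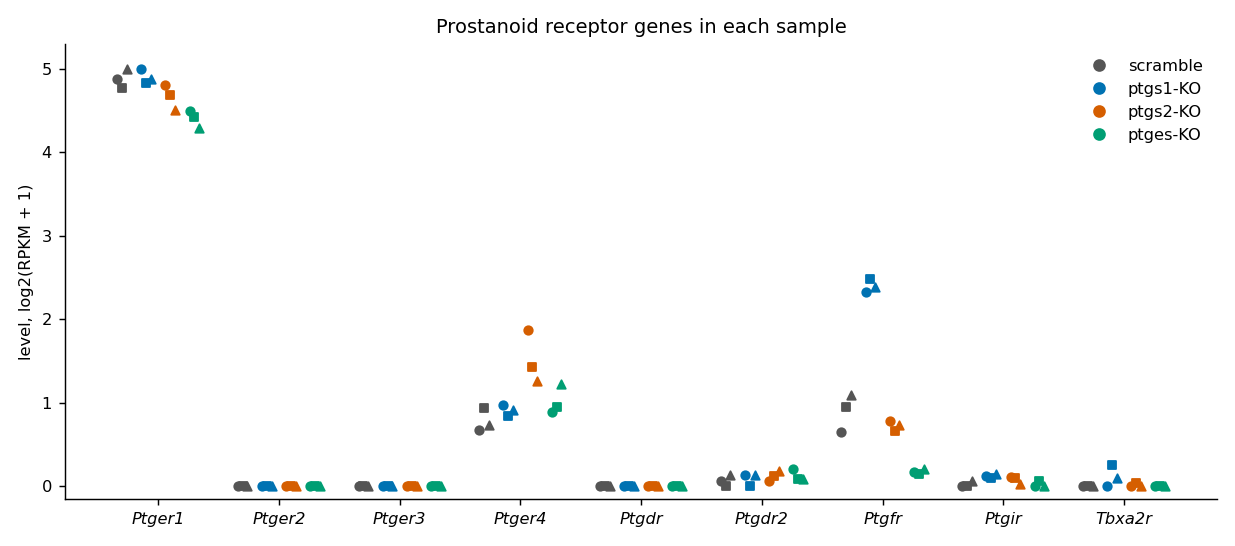
Level of the 9 prostanoid receptor genes in each sample (y axis, log2(RPKM + 1)), grouped by gene on the x axis, with colors for the 4 groups and circles, squares, and triangles for replicates 1, 2, and 3. *Ptger2*, *Ptger3*, and *Ptgdr* are at 0 throughout, and *Ptgfr* stands at 4.01 to 4.61 RPKM in *ptgs1*-KO cells and at 0.11 to 0.16 RPKM in *ptges*-KO cells.

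The *Nr4a* genes code for orphan nuclear receptors that many stimuli, cAMP among them, induce within a short time. The promoters of *Nr4a1* and *Nr4a2* are shown because both genes passed against scramble in a knockout and their start sites carry similar elements. Of the 10 genes 7 had promoter windows in RefSeq on GRCm38.p6, 11 windows of 300 bases in all, from 250 bases before to 50 bases after a start. The search was for the core of the cAMP response element, TGACG, on both strands (CGTCA on the other strand) and for the full element TGACGTCA, which holds the core on both strands. *Nr4a1*, *Nr4a2*, and *Nr4a3* each had 4 cores, *Pde4b* and *Per1* had 1 in the windows that held any, and no window of the 7 genes held the full element. Among 32851 windows of this length 20.8% held at least 1 core, 0.231% held at least 4, and 1.79% held the full element. The 250 bases before the start are printed 5′ to 3′ on the strand of the gene, with cores in capitals, for *Nr4a1* (chr15:101266596-101266845, plus strand) and *Nr4a2* (chr2:57124004-57124253, minus strand).
Nr4a1: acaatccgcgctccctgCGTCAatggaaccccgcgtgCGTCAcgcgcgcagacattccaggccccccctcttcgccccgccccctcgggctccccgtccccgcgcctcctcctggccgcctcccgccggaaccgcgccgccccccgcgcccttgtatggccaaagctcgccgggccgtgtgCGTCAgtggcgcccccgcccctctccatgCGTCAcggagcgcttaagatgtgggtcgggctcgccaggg
Nr4a2: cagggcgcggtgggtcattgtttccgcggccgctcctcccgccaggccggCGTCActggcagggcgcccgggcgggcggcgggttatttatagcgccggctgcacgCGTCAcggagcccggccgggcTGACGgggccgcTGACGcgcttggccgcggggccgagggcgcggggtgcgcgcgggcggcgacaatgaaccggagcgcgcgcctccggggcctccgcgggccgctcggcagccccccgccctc
In *Nr4a1* the cores begin 233, 213, 69, and 40 bases before the start, and in *Nr4a2* 200, 144, 123, and 111 bases before it. A match of these letters does not show that CREB binds there.

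*Nr4a1* (Nur77) was the most abundant of the 10 genes, on chromosome 15 from 101254269 to 101274795. It had 29.63, 27.62, and 31.65 RPKM in scramble and 34.77, 31.94, and 31.81 RPKM in *ptgs1*-KO cells. Samples of *ptgs2*-KO cells had 36.66, 33.51, and 31.40 RPKM, and those of *ptges*-KO cells 39.59, 36.27, and 38.01 RPKM. Every *ptges*-KO sample exceeded every scramble sample, and the means stood in the order *ptges*-KO, *ptgs2*-KO, *ptgs1*-KO, and scramble, in which no pair of neighbors differed past the threshold. *Nr4a1* rose in *ptges*-KO cells by 0.35 ± 0.08 (SE) on the log2(RPKM + 1) scale, to 1.28-fold the scramble mean (limma, adjusted p = 0.00775). The differences of 0.14 in *ptgs1*-KO (limma, adjusted p = 0.318) and of 0.19 in *ptgs2*-KO cells (limma, adjusted p = 0.166) did not pass.

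*Nr4a2* (Nurr1), on chromosome 2 from 57106830 to 57124003 on the minus strand, had another order. It had 5.26, 3.85, and 5.07 RPKM in scramble and 6.69, 5.90, and 5.97 RPKM in *ptgs1*-KO cells. Its values were 2.77, 3.27, and 3.53 RPKM in *ptgs2*-KO and 4.67, 4.05, and 4.25 RPKM in *ptges*-KO cells. The *ptgs1*-KO samples were the 3 highest and the *ptgs2*-KO samples the 3 lowest of the 12, while *ptges*-KO samples lay within the range of scramble. *Nr4a2* fell in *ptgs2*-KO cells by 0.45 ± 0.12 (SE), to 67.5% of the scramble mean (limma, adjusted p = 0.033), a call that was lost when scramble replicate 1 or 3 or *ptgs2*-KO replicate 1 or 2 was left out (limma adjusted p = 0.13, 0.106, 0.122, and 0.0711). Against *ptgs1*-KO cells the difference of -0.78 ± 0.12 was the larger one (limma, adjusted p = 0.000455) and was -0.80 without *ptgs1*-KO replicate 3 (limma, adjusted p = 0.00161). In *ptges*-KO cells *Nr4a2* was lower than in *ptgs1*-KO cells (-0.43, limma adjusted p = 0.0171, or 0.0291 without *ptgs1*-KO replicate 3), and did not pass against scramble (-0.10, limma adjusted p = 0.598). *Nr4a3* (NOR1) was low in all samples, from 0.22 to 0.79 RPKM, with group means of 0.353 ± 0.101 RPKM in scramble, 0.473 ± 0.277 in *ptgs1*-KO, 0.307 ± 0.0961 in *ptgs2*-KO, and 0.533 ± 0.132 in *ptges*-KO cells that overlapped one another in their samples.

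*Pde4b* and *Pde4d* code for phosphodiesterases that break down cAMP and that cAMP signaling itself can induce. *Pde4b*, on chromosome 4 from 102087543 to 102607259, had 1.80, 2.15, and 2.05 RPKM in scramble and 1.32, 1.55, and 1.19 RPKM in *ptgs1*-KO cells. It had 1.87, 1.58, and 1.49 RPKM in *ptgs2*-KO and 3.94, 4.64, and 4.56 RPKM in *ptges*-KO cells. The 3 *ptges*-KO samples were far above the other 9, and the *ptgs1*-KO samples lay below all scramble samples. *Pde4b* rose 2.19-fold in *ptges*-KO cells, by 0.84 ± 0.12 (SE) on the log2(RPKM + 1) scale (limma, adjusted p = 0.00022). It was also higher than in *ptgs2*-KO cells (1.02 ± 0.12, limma adjusted p = 4.81e-05) and in *ptgs1*-KO cells (1.19 ± 0.12, limma adjusted p = 5.9e-06, or 1.14 with an adjusted p of 5.05e-05 without *ptgs1*-KO replicate 3). The lower level in *ptgs1*-KO cells, -0.35 ± 0.12 against scramble, did not pass (limma, adjusted p = 0.0808). It was -0.30 (limma, adjusted p = 0.157) without *ptgs1*-KO replicate 3, and passed with scaling by the median ratio (limma, adjusted p = 0.0442) and without a mean-variance trend (limma, adjusted p = 0.0334). *Pde4d* had 0.717 ± 0.0924 RPKM in scramble, 0.840 ± 0.183 in *ptgs1*-KO, 0.663 ± 0.146 in *ptgs2*-KO, and 0.747 ± 0.101 in *ptges*-KO cells, and its groups overlapped.

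*Crem*, *Sik1*, and *Per1*, genes with a feedback role in CREB signaling or, for *Per1*, in the circadian clock, passed in none of the 6 comparisons as modeled here. *Crem*, for a repressor and activator of the CREB family, had 1.22, 1.03, and 0.88 RPKM in scramble and 0.96, 1.28, and 1.82 RPKM in *ptges*-KO cells. The highest 2 *ptges*-KO values exceeded every scramble sample, but the groups overlapped, and the difference was 0.19 with an interval of -0.14 to 0.53 on the log2(RPKM + 1) scale (limma, adjusted p = 0.403). Its means in *ptgs1*-KO and *ptgs2*-KO cells were 0.793 ± 0.256 and 0.903 ± 0.0907 RPKM. Between *ptges*-KO and *ptgs1*-KO cells the difference of 0.39 did not pass (limma, adjusted p = 0.0778), but passed in 4 of 20 alternatives, with limma adjusted p from 0.025 to 0.0498. *Sik1*, on chromosome 17 from 31844250 to 31855804, codes for a salt-inducible kinase that restrains the coactivators of CREB. Its mean was 7.60 ± 0.661 RPKM in scramble, 6.71 ± 0.861 in *ptgs1*-KO, 6.60 ± 0.423 in *ptgs2*-KO, and 6.71 ± 0.849 in *ptges*-KO cells, and the difference of *ptges*-KO cells from scramble was -0.16 with an interval of -0.41 to 0.09. *Per1*, on chromosome 11 from 69095217 to 69109960, had 6.87 ± 0.434 RPKM in scramble, 6.03 ± 1.70 in *ptgs1*-KO, 5.87 ± 0.201 in *ptgs2*-KO, and 6.58 ± 0.687 in *ptges*-KO cells. Its spread was widest in *ptgs1*-KO cells, where replicate 3, the library rich in ribosomal RNA, had the highest *Per1* value of all samples, 7.87 RPKM, and replicate 2 the lowest, 4.51 RPKM. Without replicate 3 the difference of *ptgs2*-KO from *ptgs1*-KO cells was 0.18 in place of -0.01, with neither past the threshold in limma. The *ptgs2*-KO samples of *Per1* lay wholly below scramble, with a difference of -0.19, an interval from -0.51 to 0.12, and an adjusted p of 0.425 in limma, so samples without overlap do not by themselves pass the test. Among the 8 genes 3 had no overlap with scramble in each of the 3 knockouts, beside 26.9%, 35.1%, and 43.3% of all genes tested in the *ptgs1*, *ptgs2*, and *ptges* knockouts.

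Between knockouts, 2 of the 8 genes passed for *ptgs2*-KO against *ptgs1*-KO cells (background 23.6%), 3 for *ptges*-KO against *ptgs1*-KO cells (background 30.2%), and 1 for *ptges*-KO against *ptgs2*-KO cells (background 16.6%). The first were *Nr4a2* and *Ptger4*, the second *Pde4b*, *Ptger1*, and *Nr4a2*, and the third *Pde4b*. In these comparisons 3, 4, and 4 of the 8 genes had no overlap, beside 35.2%, 40.3%, and 34% of all genes. *Pde4b* was thus the only one of the 8 genes that passed for *ptges*-KO cells against each of the other 3 groups. The last count was 3 with scaling by the median ratio, with quantile normalization, and without a mean-variance trend. Of all genes tested, 1240 passed as higher and 1260 as lower by the median ratio, and 1092 and 1253 with quantile normalization. As deposited these were 763 and 1110, so more of all genes passed with either scaling. Without ribosomal RNA rows 809 passed as higher and 1475 as lower. In the model of *ptges*-KO and *ptgs2*-KO cells alone with a replicate block, 2 of the 8 genes passed (*Pde4b* and *Ptger1*). More of all genes passed in that model too.

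The rest of the pathway was described from lists of 77 further genes, which include the other prostanoid receptors, 20 other cAMP-responsive genes, and genes for transport and breakdown of PGE2 beside those that act between receptor and target. Of the 77 genes 47 were high enough to be tested. In *ptgs1*-KO cells 6 of the 47 rose and 6 fell, 25.5% together, where 4.65% and 4.61% of all genes tested did. With *ptgs2* targeted 5 rose and 4 fell (19.1%), beside 5.97% and 5.17% of all genes, and with *ptges* targeted 9 rose and 11 fell (42.6%), beside 11.9% and 14.4%. Without *ptgs1*-KO replicate 3 the counts of that group were 6 and 3, and without scramble replicate 2 they were 3 and 3. Leaving out *ptgs1*-KO replicate 1 lost the falls of *Pkia*, *Pde7a*, and *Rap1a* (limma adjusted p = 0.0501, 0.0595, and 0.0733). The rises of *Prkar2b* and of *Nfil3*, 1 of the other cAMP-responsive genes, were lost there too (limma adjusted p = 0.155 and 0.0738). In *ptgs2*-KO cells the count that rose depended on single libraries. It was 1 (*Adcy7*) without scramble replicate 1 or *ptgs2*-KO replicate 1, 2 without scramble replicate 2, *ptgs2*-KO replicate 2, or *ptges*-KO replicate 2, and 3 without scramble replicate 3, *ptgs1*-KO replicate 2, *ptgs2*-KO replicate 3, or *ptges*-KO replicate 3. The medians of the 47 genes were 0.09, 0.02, and -0.13 on the log2(RPKM + 1) scale, beside 0.01, 0.01, and -0.03 for all genes tested. *Ptgfr*, *Pde8b*, and *Pde1a* reached a mean of 1 RPKM through groups in which they were then called higher. The lists were chosen with earlier results known, and nothing particular to the 47 genes is read from these counts. Of 11 genes for adenylyl cyclases, which make cAMP, and Gs, 4 were tested. *Adcy7*, for an adenylyl cyclase, rose in *ptgs2*-KO cells from 3.25 ± 0.291 to 10.3 ± 0.351 RPKM (1.42 ± 0.13, limma adjusted p = 1.76e-05) and fell in *ptges*-KO cells to 1.90 ± 0.357 RPKM (-0.56 ± 0.13, limma adjusted p = 0.00877). *Gnas*, for the Gs subunit and the most abundant gene of this list, rose in *ptges*-KO cells from 732 ± 17.2 to 1074 ± 44.4 RPKM (0.55 ± 0.08, limma adjusted p = 0.000282). None of the 4 passed in *ptgs1*-KO cells, by limma at the same threshold.

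Of 9 PKA genes 7 were tested, and in *ptges*-KO cells 4 rose and none fell, beside 11.9% and 14.4% of all genes tested. They were *Prkar2b* (1.67-fold), *Prkar1a* (1.19-fold), *Pkia* (1.81-fold), and *Pkig* (1.41-fold), of which *Prkar2b* and *Prkar1a* code for regulatory subunits, which hold the kinase inactive until cAMP binds, and *Pkia* and *Pkig* for inhibitors of the catalytic subunit. *Prkar2b* also rose to 1.21-fold in *ptgs1*-KO and 1.20-fold in *ptgs2*-KO cells (limma, adjusted p = 0.0497 and 0.0465). Its calls in these groups were lost in 14 and 11 of 21 alternatives. *Prkar2a* rose in *ptgs2*-KO cells (1.33-fold, limma adjusted p = 0.0483), and *Pkia* fell in *ptgs1*-KO cells (0.780-fold, limma adjusted p = 0.0411, or 0.0994 without replicate 3). Of these calls, those of *Prkar2b* and *Pkia* in *ptges*-KO cells held in all 21 alternatives of processing, and each of the others was lost in at least 6. Of the 8 genes of the CREB family and its coactivators, all of which were tested, 1 fell in *ptgs1*-KO (*Crtc2*, -0.40), 1 rose in *ptgs2*-KO (*Atf1*, 0.32, the most abundant of them), and 1 fell in *ptges*-KO cells (*Crtc1*, -0.33). The calls of *Atf1* and *Crtc1* were lost in 4 and 10 of 21 alternatives. The 3 genes for SIK kinases, of which *Sik3* was the most abundant with a mean of 69.8 RPKM, did not pass against scramble in limma in any knockout. Of 4 genes for EPAC and Rap1, which carry cAMP signals apart from PKA, 3 were tested, *Rapgef3* (EPAC1) fell in *ptgs2*-KO (-0.52) and *ptges*-KO cells (-0.77), and *Rap1a* fell in *ptgs1*-KO cells (-0.48, limma adjusted p = 0.0222, or 0.0629 without replicate 3). *Rap1b*, the most abundant of the 4 genes, did not pass. Of 3 genes for transport and breakdown of PGE2, *Hpgd* was listed at 0, *Abcc4* was the most abundant with a mean of 19.1 RPKM, and the 2 genes tested did not pass against scramble.

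Of 16 genes for phosphodiesterases of cAMP 8 were tested. Beside *Pde4b*, *Pde8b* rose in *ptges*-KO cells from 0.693 ± 0.102 to 1.91 ± 0.373 RPKM (limma, adjusted p = 0.00118) and *Pde11a* fell from 2.18 ± 0.622 to 0.757 ± 0.210 RPKM (limma, adjusted p = 0.00273). In *ptgs1*-KO cells *Pde8b* and *Pde1a* rose (0.75 and 0.87) and *Pde7a* fell (-0.38, limma adjusted p = 0.0447, or 0.118 without replicate 3), and in *ptgs2*-KO cells *Pde1a* rose (0.57, limma adjusted p = 0.0432), which was lost in 9 of 20 alternatives, the replicate block among them (limma adjusted p = 0.0626). *Pde3b*, the most abundant with a mean of 45.9 RPKM, did not pass in any knockout. *Pde8b* and *Pde1a* reached a mean of 1 RPKM only through groups in which they were then called higher, *ptgs1*-KO with *ptges*-KO and *ptgs1*-KO with *ptgs2*-KO. Without a filter on low values the limma adjusted p of *Pde8b* was 0.00249 in *ptgs1*-KO and 0.00122 in *ptges*-KO cells, and that of *Pde1a* was 0.00828 in *ptgs1*-KO and 0.0574 in *ptgs2*-KO cells.

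Other genes induced by cAMP were divided too. Of 20 such genes 14 were tested, of which 2 rose and 2 fell in *ptgs1*-KO, none rose and 3 fell in *ptgs2*-KO, and 3 rose and 6 fell in *ptges*-KO cells. Among all genes tested, 4.65%, 5.97%, and 11.9% rose and 4.61%, 5.17%, and 14.4% fell in these knockouts, in the same order. *Fos* fell from 12.5 ± 1.51 RPKM in scramble to 5.40 ± 0.444 in *ptgs2*-KO (-1.07, limma adjusted p = 6.6e-05) and 4.69 ± 0.580 in *ptges*-KO cells (-1.24, limma adjusted p = 8.46e-06), and *Fosb* fell from 28.6 ± 1.31 to 17.3 ± 2.41 and 11.4 ± 0.904 RPKM (-0.71 and -1.26). These immediate early genes fell in the groups in which *Nr4a1* was 1.14-fold and 1.28-fold the scramble mean. The former, in *ptgs2*-KO cells, did not pass (limma, adjusted p = 0.166). *Egr1*, another immediate early gene, rose in *ptges*-KO cells (1.46-fold, limma adjusted p = 0.00264), whereas *Bdnf*, for a neurotrophin, fell there (-0.51). *Btg2*, an antiproliferative gene, fell in *ptgs1*-KO (-0.93) and *ptges*-KO cells (-0.48), and *Areg*, for the growth factor amphiregulin, fell in *ptgs1*-KO (-0.68) and rose in *ptges*-KO cells (0.28). *Dusp1*, for a phosphatase of MAP kinases and the most abundant gene of this list, fell in *ptgs2*-KO (-0.46) and *ptges*-KO cells (-0.36).

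**Figure D4:**
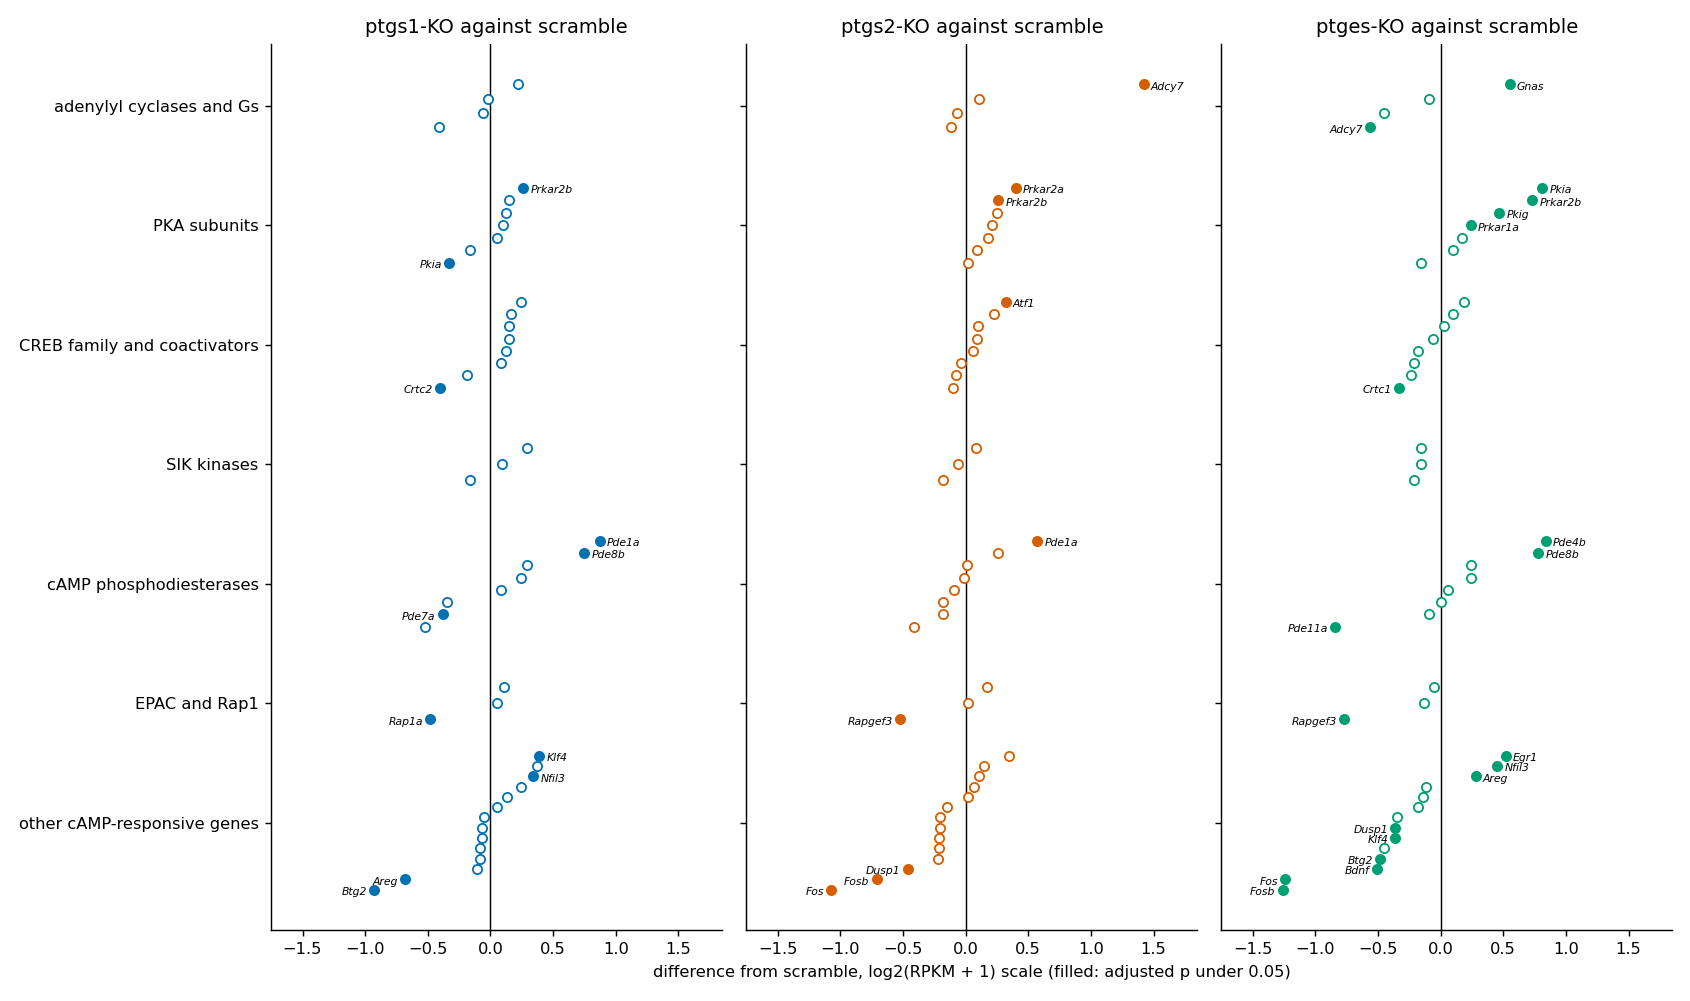
Difference of each knockout from scramble (x axis, log2(RPKM + 1) scale) for the genes tested in 7 lists of the cAMP pathway (y axis, 1 point per gene, sorted within each list), with filled and named points where the adjusted p was under 0.05. In *ptges*-KO cells the 4 filled PKA genes are all on the higher side, and the filled points of other cAMP-responsive genes lie on both sides of 0, from -1.26 to 0.52.

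Markers of other cell types were at or near 0 in most lists, apart from *Pdgfra* of the fibroblast list. Of 4 leukocyte markers *Cd3e* was listed at 0 and the most abundant, *Cd68*, had a mean of 1.13 RPKM. The sum of the list was 1.44 to 2.08 RPKM in scramble, 0.84 to 1.08 RPKM in *ptgs1*-KO, 0.67 to 1.69 RPKM in *ptgs2*-KO, and 0.75 to 0.93 RPKM in *ptges*-KO cells. *Cd68* reached a mean of 1 RPKM through its scramble samples and fell in *ptges*-KO cells (-0.62, limma adjusted p = 0.0143, or 0.02 without a filter), a call that was lost without scramble replicate 3 or *ptges*-KO replicate 2 (limma adjusted p = 0.06 and 0.056). The endothelial list did not exceed 0.17 RPKM and the epithelial list 0.01 RPKM in any sample, with *Kdr*, *Epcam*, *Krt14*, and *Krt5* listed at 0. Of 4 fibroblast markers *Dcn* and *Lum* were listed at 0, and *Pdgfra*, the most abundant with a mean of 6.91 RPKM, fell in *ptgs2*-KO (-0.93) and *ptges*-KO cells (-0.52). The sum of the fibroblast list was 8.20 to 8.68 RPKM in scramble, 10.7 to 12.1 RPKM in *ptgs1*-KO, 3.63 to 4.75 RPKM in *ptgs2*-KO, and 5.01 to 5.97 RPKM in *ptges*-KO cells. The melanocyte list summed to 1.92 to 5.18 RPKM over the 12 samples, and *Mitf* did not pass against scramble. The part of other cells in the results was not tested.

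For each gene tested, the genes whose levels followed it most closely over the 12 samples were found by Pearson's r on log2(RPKM + 1), as a description in which all points share library and depth. They were *Rnf165* (r = 0.978) and *AB349340* (0.975) for *Ptger1*, *Limk2* (0.895) and *Naip2* (0.879) for *Ptger4*, *Setd3* (0.949) and *Mpp6* (0.948) for *Nr4a1*, and *Tdeanc2* (0.968) and *Ptov1* (0.960) for *Nr4a2*. For *Pde4b* they were *Lxn* (0.971) and *Bnip3* (0.965), for *Crem*, *Pdzd11* (0.858) and *Rusc1* (0.857), for *Sik1*, *Slc17a5* (0.798) and *Men1* (0.791), and for *Per1*, *Tigd3* (0.827) and *Zfp574* (0.766). The 3 genes that passed no comparison had the lowest values of r. Each r is among the highest of all genes tested over only 12 samples, so high values arise even without a relation. *Bnip3*, a hypoxia-responsive gene, had means of 105 RPKM in scramble, 66.3 RPKM in *ptgs1*-KO, 95.4 RPKM in *ptgs2*-KO, and 214 RPKM in *ptges*-KO cells. This is the same order as in *Pde4b*, which is largely given by the choice of *Bnip3* for its r, and a link to hypoxia was not tested. None of the 16 genes was itself among the 10.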

How the data were processed

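RNA-seq was analyzed in 12 samples, assigned by their labels to 4 groups of 3. The authors deposited values to 2 decimals for 30705 gene names, 12082 of them at 0 in all samples. Their legends call the unit RPKM, so these RPKM values already include the authors' alignment, counting, and scaling by gene length and depth. Sums per sample ran from 878504 to 903881, so another scaling to a fixed total is not excluded. Build mm10 comes from the submitters' processing notes. The aligner, the counter, and the annotation are not given in the sources used here. Read counts were not used here, and depth was estimated from the smallest step of value times length among low values (13.3 to 16.9 M reads).

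In R 4.3.3 with limma 3.58.1, 11282 genes that reached a mean of 1 RPKM were fitted on log2(RPKM + 1), a pseudocount of 1, by lmFit and eBayes with a trend, all 12 samples in 1 model. P-values were Benjamini-Hochberg adjusted over all genes tested, with a threshold of 0.05, in 6 comparisons and in a moderated F test. Data simulated with normal noise of each gene's own spread were tested for *ptges*-KO against scramble. Of 100 genes changed by 0.5 on the log2 scale 50% were recovered, and of 100 changed by 1, 92%. There were 8 false calls among the unchanged genes of the 11282 fitted. Python 3.11.15 and matplotlib 3.10.9 made the figures, positions follow GENCODE on GRCm38, and promoters follow RefSeq on GRCm38.p6.

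The members, the gene lists, and the tests were chosen with earlier results of these data known. Named were the 10 genes, the targeted genes, all prostanoid receptors, from each other list up to 6 genes called against scramble and the most abundant one, cell type markers that led a list or stood at 0, and the 2 genes most like each gene tested. *Klf4*, *Prkacb*, and the group means of *Bnip3* were added after their values were seen. Alternatives were another pseudocount (0.1), quantile normalization, median ratio scaling, a minimum mean of 5 RPKM or none, a replicate block, models of the 2 groups alone, no trend, leaving out each replicate, and, chosen after seeing the data, removal of ribosomal RNA rows and, between *ptges*-KO and *ptgs2*-KO, those 2 groups with a replicate block, as the deviations of their 3 same-numbered pairs all correlated over 0.1 (the labels do not state a pairing). Some values are not reported here.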

Additional observations from a re-analysis of the deposited data

Results flagged for a closer look

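In 2 of the 10 genes a pair of knockouts lay on opposite sides of scramble with no overlap of samples, and the pair differed in the direct test of limma. *Nr4a2* was lower in *ptgs2*-KO and higher in *ptgs1*-KO cells, a difference of -0.78 on the log2(RPKM + 1) scale (limma, adjusted p = 0.000455). *Pde4b* was higher in *ptges*-KO and lower in *ptgs1*-KO cells, a difference of 1.19 (limma, adjusted p = 5.9e-06). In both genes the *ptgs1*-KO side did not pass against scramble by itself.

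The same pattern was found in 9 other genes of the pathway. For *ptges*-KO against *ptgs1*-KO cells the differences on this scale were -2.22 for *Ptgfr*, 1.14 for *Pkia*, 0.62 for *Pde7a*, 0.96 for *Areg*, -0.88 for *Bdnf*, and -0.75 for *Klf4*. For *ptgs2*-KO against *ptgs1*-KO cells they were 1.83 for *Adcy7*, 0.58 for *Pkia*, 0.63 for *Crtc2*, 0.64 for *Pde7a*, and 0.83 for *Areg*. For *ptges*-KO against *ptgs2*-KO cells they were -1.97 for *Adcy7* and -0.34 for *Prkacb*, the latter with neither side past the threshold against scramble. The *Prkacb* call was lost without *ptgs2*-KO replicate 1 or 2 (limma, adjusted p = 0.104 and 0.0668) and without *ptges*-KO replicate 2 or 3 (limma, adjusted p = 0.0897 and 0.106), and the other 14 calls held in all alternatives in which the gene was tested. These 15 results, in 11 genes, come from 55 genes tested (20% of them), beside 9.43% of all genes tested that showed the pattern in at least 1 comparison. For the 3 comparisons in the order *ptgs2*-KO against *ptgs1*-KO, *ptges*-KO against *ptgs1*-KO, and *ptges*-KO against *ptgs2*-KO, the shares were 10.9%, 12.7%, and 3.64% of the 55 genes and 5.58%, 5.43%, and 2.65% of all genes. The members and lists were chosen with such results known, and nothing particular to them is read from these shares. Among the 15 results, *ptgs1*-KO cells form 1 side of 13, and these calls held without *ptgs1*-KO replicate 3, the library rich in ribosomal RNA. Over all genes the pattern was found in 630, 613, and 299 genes in the same order of comparisons, so most had a *ptgs1*-KO side there too. The cause of the differences was not tested.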

How the results depend on the processing

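The rises of *Pde4b* and *Nr4a1* and the fall of *Ptger1* in *ptges*-KO cells, all against scramble, passed in every alternative in which the gene was tested. Their limma adjusted p ranged from 5.41e-05 to 0.00221 (*Pde4b*), 0.000832 to 0.0372 (*Nr4a1*), and 0.000868 to 0.018 (*Ptger1*). That of *Ptger4* in *ptgs2*-KO cells, the group through which it was tested, ranged from 0.00407 to 0.046. The fall of *Nr4a2* in *ptgs2*-KO cells was lost without a filter on low values (limma, adjusted p = 0.0599) and with only the 2 groups compared (limma, adjusted p = 0.0731), beside the replicates named above. Its difference between *ptges*-KO and *ptgs1*-KO cells was lost with quantile normalization (limma, adjusted p = 0.0754) and without *ptgs1*-KO replicate 1, *ptges*-KO replicate 2, or *ptges*-KO replicate 3 (limma, adjusted p = 0.0602, 0.0695, and 0.0525). No call of the 10 genes changed direction. *Nr4a1* differed between *ptges*-KO and *ptgs1*-KO cells with scaling by the median ratio and with quantile normalization (limma, adjusted p = 0.00979 and 0.0113), as did *Ptger1* between *ptgs2*-KO and *ptgs1*-KO cells (limma, adjusted p = 0.0371 and 0.0406).

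Of the 10 genes, of which 8 were tested in the main model, the number that passed against scramble was 1 in *ptgs1*-KO cells by the median ratio and without trend (0 as reported). In *ptgs2*-KO cells it was 1 without a filter and with only the 2 groups, 0 with a filter at a mean of 5, and 1 to 2 with replicates left out in turn. The filter at 5 leaves out *Ptger4*, *Nr4a2*, *Pde4b*, and *Crem*, so only *Ptger1*, *Nr4a1*, *Sik1*, and *Per1* were tested. With that filter the number was 0 for *ptgs2*-KO against *ptgs1*-KO, 1 for *ptges*-KO against *ptgs1*-KO, 0 for *ptges*-KO against *ptgs2*-KO cells, and 2 in the F test. For *ptgs2*-KO against *ptgs1*-KO cells it was 1 to 2 with replicates left out and 3 by the median ratio and quantile normalization. For *ptges*-KO against *ptgs2*-KO cells it was 3 by the median ratio, quantile normalization, and no trend. It was 2 without ribosomal RNA rows and 1 to 3 with replicates left out. More of all genes passed by both scalings and without those rows.

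Over all genes, the number past the threshold against scramble was 1570 in *ptgs1*-KO cells with quantile normalization and 1927 in *ptgs2*-KO cells by the median ratio. With replicates left out in turn it ran from 645 to 1163 in *ptgs1*-KO, 722 to 1559 in *ptgs2*-KO, and 1936 to 3282 in *ptges*-KO cells, and from 1104 to 2236 for *ptges*-KO against *ptgs2*-KO cells. Without ribosomal RNA rows 846 genes were higher and 515 lower in *ptgs1*-KO cells against scramble (525 and 520 as deposited), and 1270 higher and 2714 lower in *ptges*-KO against *ptgs1*-KO cells (1494 and 1915).

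Directions turned for differences that had not passed. With quantile normalization these were *Ptger1* in *ptgs1*-KO (-0.01), *Nr4a2* (0.01) and *Per1* (0.05) in *ptges*-KO cells against scramble, and *Sik1* (0.08) and *Per1* (0.10) for *ptgs2*-KO against *ptgs1*-KO cells. Without ribosomal RNA rows *Sik1* was -0.06 for *ptges*-KO against *ptgs1*-KO and -0.01 against *ptgs2*-KO cells. With replicates left out, *Ptger1* in *ptgs1*-KO ranged from -0.04 to 0.07 and *Per1* in *ptges*-KO cells from -0.12 to 0.01. For *ptgs2*-KO against *ptgs1*-KO cells the ranges were -0.02 to 0.09 (*Nr4a1*), -0.01 to 0.20 (*Crem*), -0.11 to 0.04 (*Sik1*), and -0.17 to 0.18 (*Per1*). For *ptges*-KO cells they were -0.10 to 0.05 (*Sik1*) and -0.03 to 0.32 (*Per1*) against *ptgs1*-KO, and -0.07 to 0.06 (*Sik1*) against *ptgs2*-KO cells.

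Same-numbered samples of different groups had a mean correlation of their deviations of 0.012 over 18 pairs (-0.341 to 0.566), and 5 of 12 samples correlated best with their own number, so the numbers were not taken as pairs over all groups. Between *ptges*-KO and *ptgs2*-KO samples all 3 pairs were over 0.1 (0.112, 0.254, and 0.566), while in each other comparison at least 1 pair was under it. Even there, *ptgs2*-KO replicate 2 correlated better with *ptges*-KO replicate 3 (0.321) than with its own number (0.112). With only these 2 groups and a replicate block, 3827 of all genes and 2 of the 10 genes passed, in place of 1873 and 1. With the replicate block 1105, 1365, and 3099 of all genes passed against scramble in the *ptgs1*, *ptgs2*, and *ptges* knockouts. Of the 10 genes 0, 2, and 3 did.

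With this depth and 3 samples a group, 50% of simulated differences of 0.5 were recovered, so a missed test does not show equal levels. Depth estimated from rounded values limits the low genes, and the unstated use of strand limits *Ptger1*. The cause of the changes with processing was not tested.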
